A study of Mus musculus with 14 samples.

Results

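The 42 genes described here act in G2 and mitosis: the kinases and cyclins that start mitosis, their transcription factors, the spindle checkpoint, the centromere and kinetochore, mitotic kinesins, spindle proteins and the proteins that shape mitotic chromosomes. They were chosen by gene symbol, and all 42 were found once in each of 2 deposited tables of 46983 genes. RNA had been sequenced from mouse corpus callosum, the large white matter tract between the hemispheres, and from neural stem cell cultures that had been differentiated toward oligodendrocytes, in mice of a FvB/C57BL6 hybrid background. The callosum came from 4 Plp-CreERT2;QKLoxP/LoxP mice (labelled Qk-KO) and 4 Plp-CreERT2;QKLoxP/+ mice (labelled WT), all given tamoxifen at 8 weeks of age and dissected 4 days later. All 8 mice therefore carried the inducible Cre, which the Plp promoter drives mainly in oligodendrocyte lineage cells, and each control mouse had 1 floxed Qk copy. The cultures comprised 3 libraries labelled Qk-KO and 3 labelled WT, 1 of each at passages 7, 12 and 13. All were differentiated in medium that held the thyroid hormone T3 (50 ng/ml), the growth factor IGF-1 (100 ng/ml) and GlutaMAX (2 mM). In the sample descriptions every culture labelled Qk-KO carries 40HT and every culture labelled WT carries EtOH, so that genotype and agent cannot be told apart. Whether the passages came from separate cell lines is not given in the sources used here, and p-values in culture measure only the spread between these libraries.

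Cells that divide make most of these RNAs late in the cycle and degrade or silence them afterwards. Cdk1 bound to A and B cyclins drives entry into mitosis, the spindle checkpoint holds chromosome separation until every kinetochore is attached, and the anaphase-promoting complex then marks cyclin B and securin for destruction. In resting cells, complexes of pocket proteins, E2F4 or E2F5 and the MuvB proteins (the DREAM complex) keep the genes off. In dividing cells B-Myb and FoxM1 join MuvB and turn them on. In the adult callosum the main dividing cells of the glial lineage are oligodendrocyte precursors, while mature oligodendrocytes and neurons no longer divide. In bulk RNA, a change in the share of dividing cells and a change in RNA per dividing cell cannot be told apart.

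The mitotic genes rose in the cultures labelled Qk-KO and showed no change past the threshold in the callosum. Directions follow the labels. Qk RNA itself was higher, not lower, in cultures labelled Qk-KO, and counts over the whole gene check neither a deletion nor the labels. In culture 31 of 42 were higher and none lower at an adjusted p under 0.05, with rises from 1.36-fold to 2.94-fold (authors' deposited table, Wald test of DESeq2). Over all 17503 tested genes of the culture table, 13.3% were called higher, 15.2% lower and 28.6% in either direction. In the callosum none of 41 tested members passed, and none had an unadjusted p under 0.05 (authors' deposited table, DESeq2). The median log2 change of the 42 genes was 0.86 in culture and -0.09 in callosum, beside medians of 0.01 and -0.01 over all tested genes of each table.

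Shared promoter letters were examined because the genes moved together in culture. RefSeq promoters (GRCm38.p6, 250 bases before to 50 after the start) were at hand for 34 of the 42 genes. Where a gene has several entries, the first was used. The cell cycle homology region (CHR, searched as TTTGAA on both strands), the element to which MuvB complexes bind, occurred in 23 of the 34 (67.6%) and in 18.1% of all 27025 genes with a promoter. The CCAAT box (searched as CCAAT on both strands), bound by NF-Y, occurred in 25 of 34 (73.5%) against 37.9% of all. Both stood in the same promoter in 21 of 34 (61.8%) against 7.12% of all, and 2 or more CCAAT matches stood in 17 of 34 (50.0%) against 12.2%. In 21 promoters a CHR match began between 75 bases before and 50 after the start (61.8%, against 6.28% of all). The E2F-like sequence GGCGGGAA, on either strand, was in none of the 34 and in 2.24% of all. These shares of all genes include genes not tested in culture. Of the tested genes with a promoter, 1313 had a CHR match and 9967 had none. The counts were 4348 and 6932 for CCAAT, and 448 and 10832 for the E2F-like sequence. Among the matches in these 34 promoters, 2 pairs overlapped. The 6 windows below run from 130 bases before to 20 after the start, 5′ to 3′ on the strand of the gene, with CHR and CCAAT matches of either strand in capitals (ATTGG and TTCAAA are the same motifs read on the other strand). First come Ube2c, with the largest rise in culture (chr2:164769799-164769948, plus strand), and Ccnb2, a cyclin that rose (chr9:70421535-70421684, minus strand). Cdk1, which did not pass (chr10:69352893-69353042, minus strand), and Mki67, the usual proliferation marker (chr7:135716360-135716509, minus strand), follow. Ccnb1 rose and has CCAAT boxes without TTTGAA (chr13:100786467-100786616, minus strand). Pttg1 was the 1 member with a negative value in culture (chr11:43425962-43426111, minus strand).
Ube2c: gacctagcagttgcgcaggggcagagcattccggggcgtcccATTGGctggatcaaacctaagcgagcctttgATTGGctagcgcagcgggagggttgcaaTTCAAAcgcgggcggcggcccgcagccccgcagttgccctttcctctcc
Ccnb2: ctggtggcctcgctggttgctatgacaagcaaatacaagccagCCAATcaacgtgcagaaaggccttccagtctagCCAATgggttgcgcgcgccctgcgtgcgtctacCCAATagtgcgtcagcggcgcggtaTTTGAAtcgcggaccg
Cdk1: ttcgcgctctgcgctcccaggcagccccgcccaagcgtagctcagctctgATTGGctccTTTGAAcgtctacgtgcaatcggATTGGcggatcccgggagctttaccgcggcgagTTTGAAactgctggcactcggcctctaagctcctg
Mki67: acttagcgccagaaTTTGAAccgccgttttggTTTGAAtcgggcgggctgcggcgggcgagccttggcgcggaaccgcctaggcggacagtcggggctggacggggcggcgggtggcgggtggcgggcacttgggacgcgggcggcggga
Ccnb1: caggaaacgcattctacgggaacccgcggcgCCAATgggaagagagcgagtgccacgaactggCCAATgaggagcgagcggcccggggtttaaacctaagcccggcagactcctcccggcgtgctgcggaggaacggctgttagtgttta
Pttg1: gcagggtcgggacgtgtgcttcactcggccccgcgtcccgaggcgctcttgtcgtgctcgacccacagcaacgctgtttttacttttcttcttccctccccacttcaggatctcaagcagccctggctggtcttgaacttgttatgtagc
The Cdk1 window holds 2 CHR matches and 2 CCAAT boxes, Ccnb2 holds 1 and 3, Ube2c 1 and 2, and Mki67 2 CHR matches. The CCAAT matches of the Mki67 promoter begin at -188, -166 and -141 from the start, upstream of the printed window. Further matches of Ube2c, Cdk1 and Ccnb2 also lie upstream of their windows. Pttg1 holds neither motif as searched. The Pttg1 window lies inside the gene, whose 5′ end in GENCODE vM21 is at 43426251, so the lack may belong to an internal start. Size of change and motif did not go together. In culture the median log2 change was 0.87 for the 23 members with a CHR match and 0.88 for the 11 without one. Only TTTGAA was searched, so any variant of the element counts here as no match. Over all tested genes with a promoter, 14.6% with a CHR match and 15.0% without were called higher in culture.

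**Figure D1:**
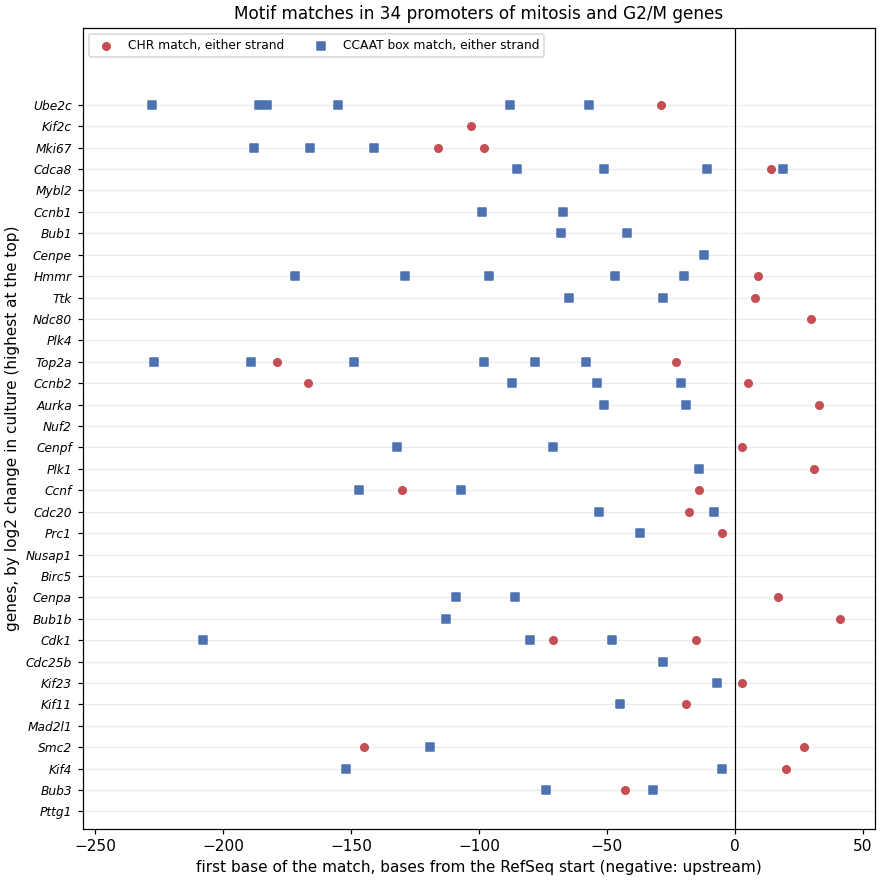
Position of CHR (circles) and CCAAT (squares) matches in the 34 promoters, in bases from the RefSeq start on the x axis, with the genes ordered by their log2 change in culture on the y axis. CHR matches gather near the start in 21 of 34 promoters, in genes at the top and the bottom of the order. Pttg1 at the bottom holds no match in the promoter used, which lies inside the gene.

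Levels are given as fitted CPM. The deposited library columns hold fitted means, so that every library of a genotype has the same fitted CPM, and the error of a change is the standard error of the authors' deposited table. For Mki67, for example, the fitted counts were 1034, 810 and 882 in the 3 cultures labelled WT. In the 3 labelled Qk-KO they were 2548, 2349 and 2187. The differences within a genotype reflect the size factor of each library alone. The groups' overlap could therefore not be examined. In culture every log2 ratio of fitted CPM lies 0.08 above the deposited log2 change. This is because the deposited values are scaled by size factors and CPM by the summed fitted counts of a library. All 42 genes together made up 274 CPM in cultures labelled WT and 442 CPM in those labelled Qk-KO, a ratio of 1.61, and 253 and 250 CPM in the callosum, a ratio of 0.987. Summed fitted counts, used here in place of depth, ran from 15048646 to 27666519 per callosum library and from 38325833 to 48912999 per culture library. The members' median mean normalized count was 61.2 in callosum and 176 in culture, and 20 of the 42 lay under 50 in callosum against 1 in culture. Qk itself, the targeted gene, was higher, not lower, in culture libraries labelled Qk-KO (1972 to 3277 CPM, log2 change 0.66 ± 0.14 SE, adjusted p = 4.19e-05, authors' deposited table). In callosum its change was 0.32 ± 0.12 (713 to 907 CPM, adjusted p = 0.162, authors' deposited table). Counts over the whole gene check neither a deletion nor the labels.

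Among the kinases, cyclins and phosphatases that start mitosis, 9 of 10 rose in culture, with a median log2 change of 0.92. The mitotic cyclins all rose. Ccna2, cyclin A2, went from 4.61 to 10.2 fitted CPM (log2 change 1.07 ± 0.24 SE, adjusted p = 8.24e-05, authors' deposited table). Ccnb1, cyclin B1, went from 1.84 to 4.28 CPM (1.14 ± 0.30, adjusted p = 0.00118, authors' deposited table), and Ccnb2 from 1.06 to 2.11 CPM (0.92 ± 0.32, adjusted p = 0.0185). Their partner Cdk1 (chromosome 10, 69335146 to 69352938, minus strand, GRCm38) went from 2.06 to 3.35 CPM and missed the threshold (0.63 ± 0.30, adjusted p = 0.103, authors' deposited table), with a 95% interval from 0.04 to 1.22. Cdc25c, a phosphatase that activates Cdk1, rose 2.91-fold from 0.474 to 1.46 CPM (authors' deposited table), and its relative Cdc25b rose 1.54-fold. Plk4, the kinase that starts centriole duplication, rose by 0.96 ± 0.23, Aurka, a kinase of the centrosome and spindle poles, by 0.91 ± 0.24, and Plk1, a kinase needed at nearly every step of mitosis, by 0.87 ± 0.31 log2 units (authors' deposited table). Ccnf, an F-box protein that targets mitotic proteins for degradation, rose by 0.86 ± 0.26 (authors' deposited table). Both transcription factors of the programme rose. Mybl2, which encodes B-Myb, rose 2.23-fold (1.16 ± 0.31, adjusted p = 0.00106, authors' deposited table), and Foxm1 rose 1.54-fold (0.62 ± 0.25, adjusted p = 0.0409), a call lost without the filter on low counts (adjusted p = 0.0657).

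Of 3 genes of chromosome separation, 1 rose. Ube2c (chromosome 2, 164769898 to 164778822, plus strand, GRCm38), the ubiquitin-conjugating enzyme of the anaphase-promoting complex, had the largest rise of the 42. It went from 1.87 to 5.82 CPM (2.94-fold, log2 1.56 ± 0.35, adjusted p = 7.25e-05, authors' deposited table). Cdc20, the activator of the same complex, went from 2.31 to 4.39 CPM and missed the threshold (0.85 ± 0.36, adjusted p = 0.062, authors' deposited table). Pttg1 (chromosome 11, 43420250 to 43426251, minus strand), which encodes securin, the inhibitor of separase, went from 13.2 to 9.68 CPM. Its log2 change of -0.52 ± 0.29 (adjusted p = 0.169, authors' deposited table) was the 1 negative value among the 42, with a 95% interval from -1.09 to 0.04.

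Of 5 spindle checkpoint genes, 3 rose, and all 5 had positive values. Bub1 (1.13 ± 0.41), Ttk, the kinase also called Mps1 (1.05 ± 0.36), and Bub1b, which encodes BubR1 (0.68 ± 0.24), rose in culture (authors' deposited table). Mad2l1, which binds Cdc20 in the checkpoint complex, had 0.47 ± 0.21 (adjusted p = 0.073), and Bub3, the WD-repeat partner of both Bub kinases, had 0.26 ± 0.12 (adjusted p = 0.0836, authors' deposited table). Bub3 was also the most abundant member per exon length, at 10.5 fitted CPM per kb in cultures labelled WT. Of the chromosomal passenger complex, which corrects faulty attachments and guides cytokinesis, Cdca8, encoding borealin (1.18 ± 0.34), the kinase gene Aurkb (1.11 ± 0.36) and the scaffold gene Incenp (0.77 ± 0.19) rose. Birc5, encoding survivin, had 0.69 ± 0.39 and an adjusted p of 0.183 (authors' deposited table).

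At the centromere and kinetochore 4 of 5 rose. Cenpe, a kinetochore motor, went from 3.79 to 8.74 CPM (1.13 ± 0.25, adjusted p = 6e-05, authors' deposited table). Ndc80 (0.98 ± 0.37) and Nuf2 (0.88 ± 0.30), neighbours in the complex that grips microtubules, and Cenpf (0.88 ± 0.21) rose as well (authors' deposited table). Cenpa, the histone H3 variant of centromeres, had 0.69 ± 0.35 with an adjusted p of 0.136 (authors' deposited table). Of the 5 kinesins, 2 rose. Kif2c, a microtubule depolymerase also called MCAK, rose 2.51-fold (1.33 ± 0.36) and Kif20a, a motor of the central spindle, 1.68-fold (0.75 ± 0.22), while Kif23 (0.55 ± 0.41), Kif11, the motor that separates the poles (0.51 ± 0.28), and the chromokinesin Kif4 (0.30 ± 0.22) did not pass (authors' deposited table). All 4 spindle proteins rose: Hmmr (1.11 ± 0.26), the Aurora A activator Tpx2 (0.77 ± 0.18), the midzone crosslinker Prc1 (0.71 ± 0.26) and Nusap1 (0.70 ± 0.29) in the authors' deposited table. Nusap1 sat at the threshold (adjusted p = 0.0499) and did not pass without the filter on low counts (0.0799) or with changes centred on the median of the tested genes (0.0555).

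Of the genes of the mitotic chromosome, 3 of 4 rose. Mki67 (chromosome 7, 135689784 to 135716361, minus strand), which coats mitotic chromosomes, went from 21.1 to 52.5 CPM and had the smallest adjusted p of the 42 (2.36-fold, log2 1.24 ± 0.22, adjusted p = 4.14e-07, authors' deposited table). Top2a, the topoisomerase that untangles sister chromatids, went from 10.7 to 21.9 CPM (0.95 ± 0.30, adjusted p = 0.00832, authors' deposited table). The condensin subunits had smaller values. Smc2 rose 1.36-fold (0.44 ± 0.14, adjusted p = 0.00873), the smallest rise that passed, and Smc4 had 0.32 ± 0.16 and an adjusted p of 0.133 (authors' deposited table).

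**Figure D2:**
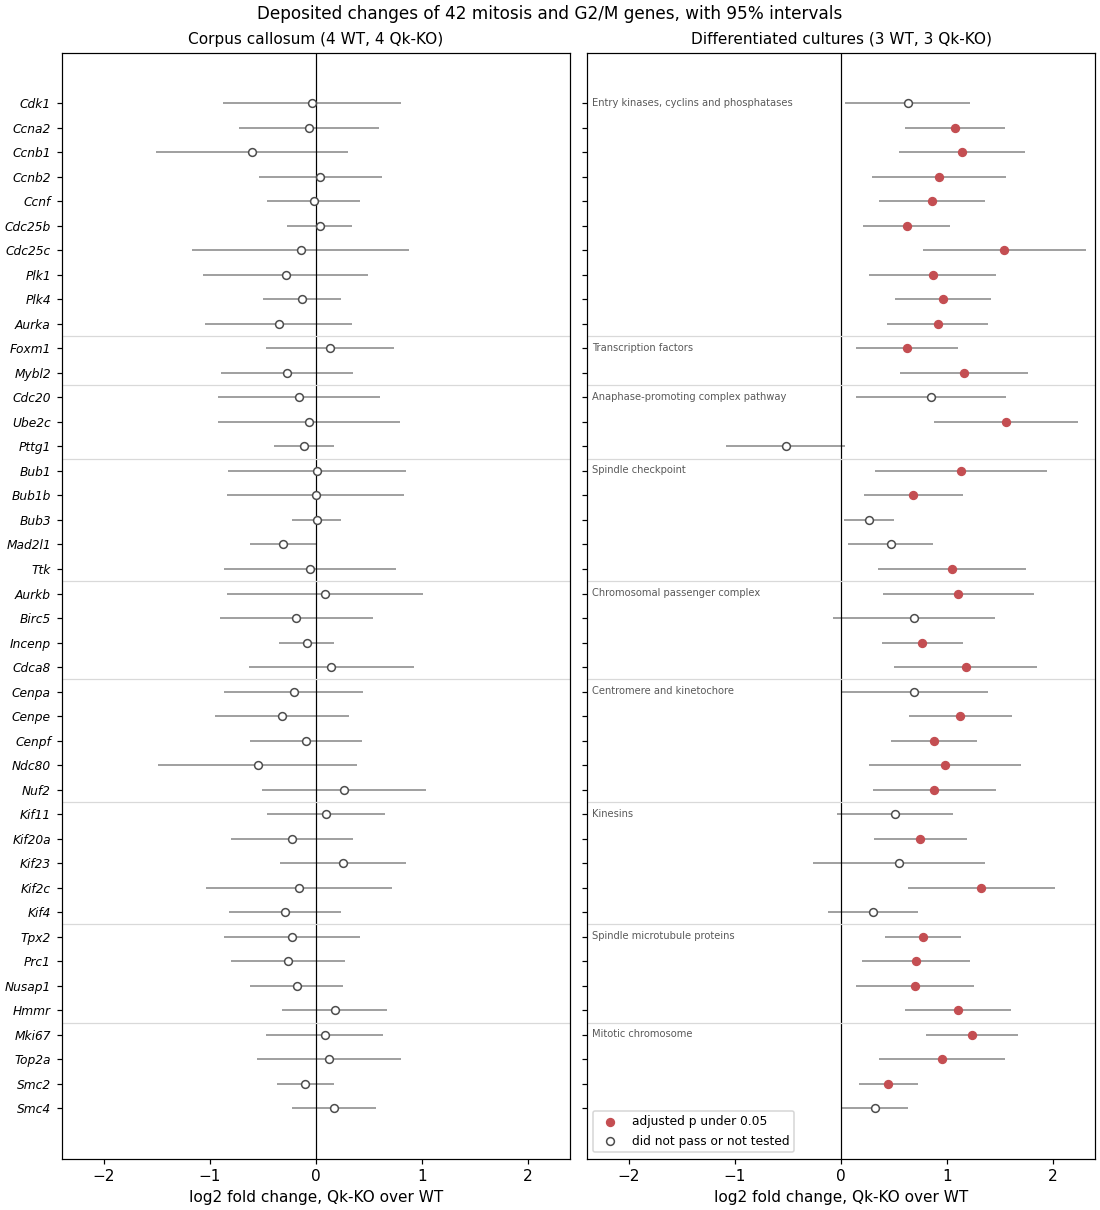
Log2 fold change of libraries labelled Qk-KO over WT (x axis) for each of the 42 genes (y axis, grouped by role) in callosum and culture, with 95% intervals from the deposited standard errors; filled points have an adjusted p under 0.05. The filled points, 31 of 42, are all in culture and all to the right of 0, and the callosum points lie between -0.60 and 0.27.

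In length-scaled levels the most abundant members had small changes. In cultures labelled WT, Bub3 (10.5 fitted CPM per kb of merged exons), Pttg1 (6.60), Smc4 (5.71) and Smc2 (3.77) stood highest, and of these Smc2 alone passed. The lowest level was that of Cdc25c (0.0964), which rose 2.91-fold (authors' deposited table). Across the 42 genes, Spearman's rho between the change in culture and the level per kb was -0.46 with the level of cultures labelled WT and -0.47 with the level of callosum labelled WT, which comes from other libraries. The 42 genes are not independent, and their levels in the 2 systems go together (rho = 0.90). Pttg1 was the most abundant in callosum (9.77 CPM per kb), ahead of Bub3 (8.03), Smc2 and Cdc25b (3.08 and 3.06) and Smc4 (2.85).

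**Figure D3:**
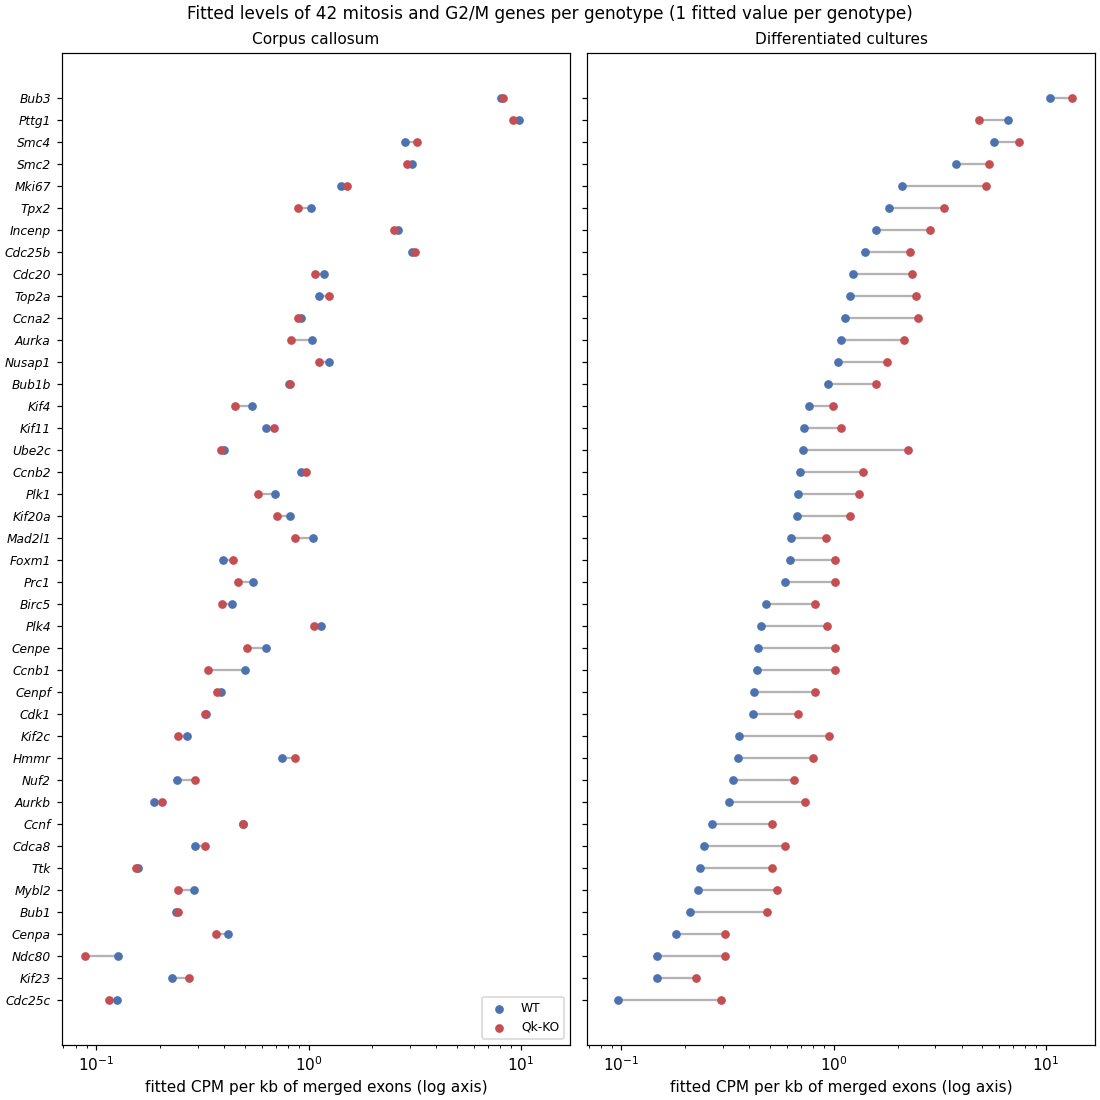
Fitted CPM per kb of merged exons (log x axis) in libraries labelled WT (blue) and Qk-KO (red), 1 fitted value per genotype, for the 42 genes ordered by their level in cultures labelled WT. In culture the red point lies to the right for every gene except Pttg1 (6.60 and 4.84), and Bub3 (10.5 and 13.3) has a short line; in callosum the colours lie close together.

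In the callosum no mitotic gene passed the threshold. At 2.32% of the 19935 tested genes called in either direction there (2.09% higher and 0.231% lower), about 1 call among 41 genes would match the table as a whole. Values were positive for 14 members and negative for 28, and every one of the 42 intervals at 95% held 0. Mki67 had 14.3 and 15.3 fitted CPM (log2 change 0.08 ± 0.28, interval -0.47 to 0.63) and Top2a 10.1 and 11.2 CPM (0.12 ± 0.35, -0.56 to 0.80, authors' deposited table). Cdk1 had 1.63 and 1.61 CPM (-0.04 ± 0.43, -0.88 to 0.80, authors' deposited table). The smallest p was that of Mad2l1 (8.81 and 7.24 CPM, -0.31 ± 0.16, unadjusted p = 0.0565, adjusted p = 0.648, authors' deposited table). The largest estimates were those of Ccnb1 (-0.60 ± 0.46) and Ndc80 (-0.55 ± 0.48, authors' deposited table), both genes with few counts. The intervals lay below a 2-fold rise for 40 of 42 genes, with Nuf2 (up to 1.04) and Aurkb (up to 1.01) reaching it, and 6 reached a 2-fold fall. No tested gene of that table has a standard error over 0.54, down to mean counts of 8.08, so that the deposited estimates of low genes appear shrunken toward 0 and their bounds may be too narrow. Cenpe (-0.32 ± 0.32) carries no p-value in the authors' deposited callosum table and was not tested there. The members' median standard error was 0.32 in callosum against 0.19 over all its tested genes.

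The change in culture exceeded that in callosum for 40 of the 41 members tested in both tables, with Pttg1 the exception. The difference of the 2 log2 changes was tested with a two-sided z test, adjusted over the 16601 genes tested in both, and 18 of 41 members passed, all higher in culture. Over all those genes 9.84% passed as higher in culture and 11.7% as lower. The smallest adjusted p values belonged to Plk4 (difference 1.09 ± 0.30, adjusted p = 0.00233), Incenp (0.85 ± 0.24, 0.00266), Mybl2 (1.43 ± 0.44, 0.00846) and Mki67 (1.15 ± 0.36, 0.00881). Ccnb1 had the widest gap (1.74 ± 0.55, adjusted p = 0.011), with opposite signs in the 2 systems. For 23 members, among them Cdk1 (0.67 ± 0.52, adjusted p = 0.416) and Top2a (0.83 ± 0.46, adjusted p = 0.206), the difference did not pass. Across the 42 genes the 2 changes showed Spearman's rho of -0.05, a description over genes that share libraries. In 7 of 42 genes the callosum interval held the culture estimate. The systems differ in cell makeup, agent and time, and the tables were normalized separately, so the test compares 2 fold changes and not levels. Estimates of low genes appear shrunken toward 0 in callosum, where 20 of the 42 members had mean counts under 50. The largest standard error was 0.54 there and 0.76 in culture, so shrinkage may differ between the tables. Differences of such genes, and their p-values in the z test, may therefore be off.

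Other cell cycle genes moved less evenly in culture. Of 71 further mitosis and G2/M genes tested, 20 rose (28.2%) and 1 fell, with a median of 0.50. The rises with the smallest p-values included Ckap2l, a spindle protein (1.34 ± 0.26), the mitotic kinase gene Pbk (1.56 ± 0.34) and Racgap1, a centralspindlin subunit (0.84 ± 0.19), and Nsl1 (0.05 ± 0.36) and Tacc3 (-0.03 ± 0.22) did not pass (authors' deposited table). The 1 that fell was Ckap5, a microtubule polymerase that non-dividing cells also use, from 344 to 188 CPM (-0.95 ± 0.13, authors' deposited table). Of 44 S phase and replication genes 15 rose (34.1%; median 0.43), those with the smallest p-values being Ccne1 (1.44 ± 0.18), Cdc7 (1.06 ± 0.17), Mcm5 (1.60 ± 0.28) and Dut (0.73 ± 0.16), with Pola1 (-0.03 ± 0.15) and Pold1 (0.05 ± 0.21) close to 0 (authors' deposited table). Of 24 genes of the anaphase-promoting complex core, its regulators and cohesin, 3 rose (12.5%) and 1 fell (4.17%), shares no higher than the 13.3% and 15.2% over all tested genes of the culture table. They were Cdc23 (0.40 ± 0.12), Anapc5 (0.36 ± 0.12), Ube2s (0.46 ± 0.16) and the cohesin gene Rad21 (-0.37 ± 0.15, authors' deposited table). Stag1 (0.00 ± 0.14) and Cdc27 (0.01 ± 0.13) did not pass (authors' deposited table). In callosum none of these 3 lists had a rise, beside 2.09% called higher and 0.231% lower over all tested genes there. The 1 fall was that of Anln (-1.22 ± 0.21, authors' deposited table), a cytokinesis gene that myelinating oligodendrocytes also express, chosen here after its value was seen.

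Genes that restrain or license the cycle moved both ways in culture. Of 32 brakes, pocket proteins, DREAM and E2F genes, 10 rose (31.2%) and 9 fell (28.1%), beside 13.3% and 15.2% over all tested genes. The largest rise was that of Cdkn1c, which encodes the Cdk inhibitor p57, from 9.80 to 73.4 CPM (2.83 ± 0.50, authors' deposited table). Cdkn2c, encoding the inhibitor p18 (-0.81 ± 0.15), and Cdkn2b, encoding p15 (-1.05 ± 0.23), fell, while Cdkn2d (0.60 ± 0.17) and Cdkn2a (0.67 ± 0.21) rose (authors' deposited table). Cdkn1a, encoding p21, had -0.39 ± 0.28, and Cdkn1b, encoding p27, had -0.03 ± 0.15, neither past the threshold (authors' deposited table). Of the repressive complexes, Rb1 (-0.49 ± 0.14), the p107 gene Rbl1 (-1.04 ± 0.25), E2f5 (-1.45 ± 0.19) and the MuvB subunit gene Lin52 (-0.99 ± 0.15) fell, Lin9 rose (0.63 ± 0.20), and the p130 gene Rbl2 (0.02 ± 0.13) and E2f4 (0.15 ± 0.15) did not pass (authors' deposited table). Of the E2F factors, E2f2 rose by 2.01 ± 0.43 and E2f7 by 1.65 ± 0.40, and E2f8 fell by 0.68 ± 0.26 (authors' deposited table). The cyclin D genes Ccnd1 (0.56 ± 0.17) and Ccnd2 (0.97 ± 0.29) rose, and Ccnd3 (0.12 ± 0.15) did not pass (authors' deposited table). In callosum none of the 31 tested genes of this list passed, beside 2.32% of all tested genes there called in either direction.

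**Figure D4:**
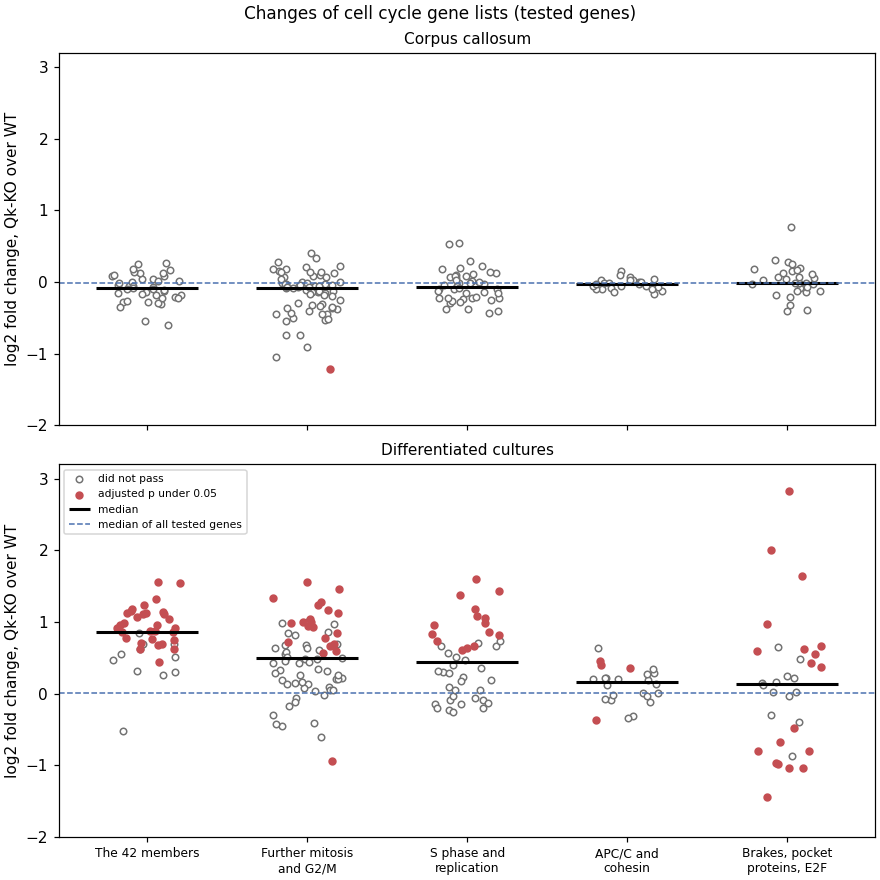
Log2 fold change of libraries labelled Qk-KO over WT (y axis) for the tested genes of 5 cell cycle lists in callosum and culture; filled points have an adjusted p under 0.05, bars are list medians and the dashed line is the median of all tested genes. In culture the median falls from 0.86 for the 42 genes to 0.50, 0.43, 0.17 and 0.13 in the other lists, and in callosum all 5 medians lie between -0.09 and -0.01.

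Markers of cell types moved beside the mitotic genes, and their part in the results was not tested. Over all tested genes, 13.3% were called higher and 15.2% lower in culture, and 2.09% and 0.231% in callosum. In lists of 7 or 8 markers, 1 or 2 calls in a direction in culture are therefore not read as a shift. In culture 7 of 8 neuron and neuroblast markers rose (summed level 793 to 1889 CPM), with the neuroblast gene Dcx at 1.42 ± 0.30, and 6 of 8 astrocyte markers fell (13144 to 4024 CPM, authors' deposited table). Of 8 neural stem cell markers 3 rose and 1 fell (1679 to 1938 CPM), with log2 changes from -0.91 to 1.49. Hes5, Fabp7 and Nes rose, while Sox2 (0.24 ± 0.13) and Egfr (-0.29 ± 0.25) did not pass (authors' deposited table). Of 7 oligodendrocyte precursor markers 1 rose and 2 fell (2928 to 3011 CPM), with Pdgfra at -0.32 ± 0.25 (authors' deposited table). Of 8 oligodendrocyte markers 2 rose and 2 fell (2740 to 2140 CPM), with log2 changes from -2.14 to 1.49 (authors' deposited table). Microglia, endothelial and pericyte markers summed to 2.43, 2.62 and 8.25 CPM in cultures labelled WT, with Itgam, C1qa, Cldn5 and Cdh5 at 0 reads, and ependymal and choroid plexus markers to 88.2 CPM, nearly all Foxj1. Oligodendrocyte markers were thus present, as the label states, beside those of astrocytes, neurons and stem cells. In those scarce lists P2ry12, Flt1, Rgs5, Foxj1 and Rarres2 fell. In callosum 5 of 8 microglia markers rose (268 to 533 CPM), as did 2 of 8 astrocyte, 3 of 8 oligodendrocyte (7048 to 7413 CPM) and 1 of 7 precursor markers (518 to 826 CPM), while no mitotic gene passed. The precursor marker that passed was Bcas1 (0.90 ± 0.23), which newly formed oligodendrocytes also express and which, at 279 and 527 CPM, made up most of the gain in that sum, and the precursor receptor gene Pdgfra had 0.07 ± 0.09 and Cspg4 0.11 ± 0.12 (authors' deposited table). Markers of ependyma and choroid plexus summed to 1969 and 1150 CPM without a call, and no neuron, stem cell, endothelial or pericyte marker passed.

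Reads of overlapping genes limit some members, since the strand setting of the counting is not given in the sources used here. In GENCODE vM21, 11 of the 42 have exons that overlap a gene on the opposite strand. For Kif20a that neighbour is Cdc23, at 61.7 CPM in cultures labelled WT against 2.92 for Kif20a, and Cdc23 also rose in culture. Ube2c and Cdc25c, with the largest rises, are among the 11. The neighbour of Ube2c is Tnnc2, which has no reads in either table, and that of Cdc25c is Gm3550, at 1.09 CPM in cultures labelled WT against 0.474 for Cdc25c (0.16 ± 0.35 in culture, authors' deposited table). For Ccna2 it is Exosc9 (0.09 ± 0.14 in culture), for Cdc20 it is Elovl1 (-0.27 ± 0.26) and for Kif4 it is Pdzd11 (-0.26 ± 0.14, authors' deposited table). Spef1 beside Cdc25b (0.41 ± 0.22), Rccd1 beside Prc1 (0.36 ± 0.21) and Oip5 beside Nusap1 (0.33 ± 0.44) had positive values. Beside Cdca8, 9930104L06Rik had -0.31 ± 0.18, and none of these passed in culture (authors' deposited table). Rccd1 stood at 4.98 CPM in cultures labelled WT against 4.82 for Prc1. For Gm44985, the neighbour of Plk1, no value is given here. Of the 31 members without such an overlap, 22 rose in culture, and of the 11 with one, 9 did.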

How the data were processed

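RNA-seq tables of 8 callosum and 6 culture libraries were used. Per the submitters' processing notes the reads passed through TopHat2 2.0.14, featureCounts and DESeq2, with FastQC and build mm10 also named and no settings given. The library columns hold log2 values that the authors deposited. Within a genotype they differ by 1 constant factor at every gene once the added count of 1 is removed, and between genotypes by the deposited fold change plus a constant, within 1e-09, so they are fitted means without replicate spread. The deposited mean column is, per the file headers, a signal: the mean of size-factor-normalized counts. The deposited score is the log2 fold change over its standard error. The deposited p-value columns hold a Wald p and its Benjamini-Hochberg value, which recomputing returned. Both tables give WT over Qk-KO, and signs were turned. Calls use the deposited adjusted p under 0.05.

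Fitted CPM, intervals at 95% (normal), the z test of the difference between systems (tested on simulated data) and motif counts were computed with Python 3.11.15, pandas 2.3.3 and SciPy 1.17.1. No test could be run across libraries. Exon lengths and coordinates come from GENCODE vM21 (GRCm38), in which all 42 gene IDs matched after their version number was removed, and promoters from RefSeq. The members and lists were chosen with earlier results of these data known. All 42 members are named; of each other cell cycle list, the 4 genes with the smallest and 2 with the largest p in culture; and brakes and markers a result turns on. Alternatives tried were a Student reference, other filters, scalings and thresholds.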

Additional observations from a re-analysis of the deposited data

Results flagged for a closer look

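A difference between culture and callosum in the effect of the Qk-KO label, past an adjusted p of 0.05 in the z test, marks 18 genes. The difference of the log2 changes, culture minus callosum, with its SE, was as follows among the entry regulators and B-Myb: Ccna2 (1.14 ± 0.41), Ccnb1 (1.74 ± 0.55), Ccnf (0.88 ± 0.34), Cdc25c (1.68 ± 0.65), Plk4 (1.09 ± 0.30), Aurka (1.26 ± 0.43) and Mybl2 (1.43 ± 0.44). Among genes of the anaphase-promoting complex, checkpoint, passenger complex and kinetochore it was Ube2c (1.62 ± 0.56), Mad2l1 (0.77 ± 0.26), Incenp (0.85 ± 0.24) and Cenpf (0.97 ± 0.34). Among motors, spindle and chromosome genes it was Kif20a (0.97 ± 0.37), Kif2c (1.48 ± 0.57), Tpx2 (1.00 ± 0.37), Prc1 (0.98 ± 0.38), Hmmr (0.93 ± 0.36), Mki67 (1.15 ± 0.36) and Smc2 (0.55 ± 0.20). Mad2l1 is among them without a call in either system alone. The limit given above for low callosum estimates holds for these differences too. Outlying single libraries could not be looked for, because the library columns hold fitted means.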

How the results depend on the processing

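No paired analysis was possible because the library columns hold fitted means, which carry no deviation of a library from its genotype. For the same reason leaving out each replicate in turn was not run. The count of 31 members higher in culture fell to 0 with a Student reference for the score (4 degrees of freedom; no gene of the table passed then), to 19 at an adjusted p under 0.01 and to 13 with a 2-fold minimum. It was between 29 and 36 under the other filters and scalings. Scaling by library totals, taken as summed fitted counts, added 0.08 to every log2 change in culture. It turned the split over all genes from 2336 higher and 2667 lower to 3054 and 2296. It also brought Cdc20, Bub3, Mad2l1 and Smc4 past the threshold. Without mitochondrial genes in the totals, a scaling chosen after seeing the data, the shift was 0.11 and Cdk1 passed too (36 members). No member fell in culture and none passed in callosum under any of the alternatives run. Of the 41 members, 18 differed between systems, 2 with a Student reference (10 degrees of freedom), 4 at an adjusted p under 0.01, and from 12 (of 21 with a mean count of at least 50 in both tables) to 21 otherwise. No member that was called reversed its direction.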
